A study of Mus musculus with 2 samples.

Results

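The genes described here encode 6 intermediate filament proteins of mouse embryonic stem cells (mESCs): the keratins Krt8, Krt18, Krt17 and Krt19, vimentin (Vim) and alpha-internexin (Ina). They are 6 of the 38458 gene columns of a single-cell RNA-seq table. They were selected on their levels in the libraries compared here, which had already been seen to differ, so those differences are given as a description and with no test. The members' levels were also already known for a minority of cells marked by Col4a1, Col4a2, Srgn, Gata6 and Gata4.

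Both libraries came from DKO741, 1 clonal line derived from E14 mESCs. Both alleles of Terc, the RNA template of telomerase, had been targeted in it, and a loxP-flanked neo cassette was taken out with a Cre adenovirus between the targeting steps, so neither group has telomerase RNA. PD100 cells were taken ahead of the switch to alternative lengthening of telomeres (ALT) and are called pre-ALT. PD800 cells were taken long after that switch and are called post-ALT. The sample labels give the time points as passages 100 and 800, whereas the paper counts them in population doublings (PD). The line was kept and stocked on mouse embryonic fibroblast feeders, while the cells for experiments were grown without feeders. Each time point had 1 inDrops library, in which a unique molecular identifier (UMI) marks each captured transcript, and age of the culture, library preparation and ALT cannot be told apart.

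Intermediate filaments are rope-like polymers that give cells mechanical strength. Keratin filaments are built from pairs of 1 type I and 1 type II chain, whereas vimentin, a type III protein, can assemble on its own, and alpha-internexin is a type IV protein of neurons. KRT8 (type II) and KRT18 (type I) form the keratin pair of simple epithelia and are the earliest keratins of the mouse embryo, where trophectoderm and extraembryonic endoderm carry them and the pluripotent epiblast has little. KRT19 is a further type I partner of KRT8 in simple epithelia, and KRT17 is a type I keratin of skin appendages and of stressed or wounded epidermis.

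After the filter of the study (at least 1000 UMIs and at most 20% mitochondrial UMIs per barcode), 814 PD100 cells with 1826233 UMIs and 900 PD800 cells with 2580963 UMIs were kept, at medians of 2151 and 2701.5 UMIs per cell. The median mitochondrial share was 1.23% in PD100 and 4.42% in PD800 cells. Terc had 0 UMIs in both libraries, a weak check of the labels since its RNA carries no poly(A) tail. The 10 stem cell markers examined were all detected in both libraries, at summed levels of 11903 and 12610 CPM (UMIs of a gene per 1000000 UMIs of all genes in the same cells), and 9 and 10 of the 11 fibroblast (feeder) genes had UMIs, at summed levels of 33.4 and 17.05 CPM. Among these, Tagln had 27 and 6 UMIs, Thy1 17 and 14, Col1a2 2 and 10, and Col1a1, a defining fibroblast gene, 0 and 2. Of all barcodes, 21 occurred in both tables, 8 of them among the kept cells. In such sums over cells, fewer cells expressing a gene and less RNA per cell cannot be told apart, and all intervals below are 95% intervals that cover counting error only.

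Across whole libraries, the 4 keratins and Ina were lower and Vim was higher in PD800. Of the 6 members, 5 had at least 50 UMIs over both libraries, the minimum used for counting. Krt8, Krt18, Krt17 and Ina were at least 2-fold lower in PD800 and Vim at least 2-fold higher, beside 16.9% of 6984 genes that were at least 2-fold lower and 9.22% that were at least 2-fold higher. Since these ratios chose the members, nothing is read from this count. With median-of-ratios scaling in place of library totals the background was 5.78% lower and 16.5% higher, and the 5 members kept their directions. The median gene had a log2 ratio of -0.34 (PD800 over PD100), to which the values below can be set.

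Krt8 was counted 243 times in PD100 (133 CPM) and 46 times in PD800 (17.8 CPM), which is a log2 ratio of -2.90 (-3.39 to -2.44). Krt18, its filament partner, had 405 UMIs (222 CPM) against 32 (12.4 CPM), a log2 ratio of -4.16 (-4.73 to -3.64). Relative to the median gene these ratios were -2.56 and -3.82. Both genes were therefore far down in the order of all 6984 genes from the highest to the lowest ratio, Krt8 at position 6936 and Krt18 at position 6972. The intervals of the 2 ratios did not overlap, and 1.67 Krt18 UMIs were counted for each Krt8 UMI in PD100 (1.42 to 1.96) and 0.696 in PD800 (0.429 to 1.12).

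Krt17 went from 84 UMIs (46.0 CPM) to 7 (2.71 CPM), a log2 ratio of -4.08 (-5.44 to -2.98). With the 5 PD100 and the 5 PD800 cells richest in Krt17 left out, which removed 6 of the 7 PD800 UMIs, the ratio was -6.46. Krt19 had 38 UMIs (20.8 CPM) in PD100 and 1 in PD800 (0.387 CPM). It stayed under the minimum of 50, and its log2 ratio of -5.75 had a wide interval (-11.09 to -3.18) because it rests on that 1 UMI.

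The remaining members belong to other filament classes and went opposite ways. Vim, the filament protein of mesenchymal cells, went from 74 UMIs (40.5 CPM) to 388 (150 CPM), giving a log2 ratio of 1.89 (1.53 to 2.27) and a position of 276 among the 6984 genes. Ina went from 161 UMIs (88.2 CPM) to 32 (12.4 CPM), giving a log2 ratio of -2.83 (-3.43 to -2.28) and position 6933. Vim was thus the only member with the higher level in the post-ALT library.

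Krt8 and Krt18 lie next to each other on chromosome 15 of GRCm38, with 23697 bases between the annotated genes. Krt8 (ENSMUSG00000049382) spans 101996698 to 102004482 on the minus strand with 9 exons, and Krt18 (ENSMUSG00000023043) spans 102028180 to 102032027 on the plus strand with 7 exons, so they are transcribed away from each other. The other type I members are on the minus strand of chromosome 11, Krt19 at 100140810 to 100148665 and Krt17 at 100256217 to 100261029. Vim lies on chromosome 2 (13573927 to 13582826, plus strand) and Ina on chromosome 19 (47014698 to 47025327, plus strand). Because Krt8 and Krt18 are the neighbours that were lower together, the stretches before their start sites are shown, from RefSeq on GRCm38.p6. They are the part of the 250 bases before each RefSeq start that no GENCODE M21 exon of the gene covers, 110 bases for Krt8 (chr15:102004483-102004592, minus strand) and 214 for Krt18 (chr15:102027966-102028179, plus strand), written 5′ to 3′ in the sense of the gene.
Krt8: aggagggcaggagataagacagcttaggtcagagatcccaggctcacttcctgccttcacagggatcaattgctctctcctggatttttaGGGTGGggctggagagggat
Krt18: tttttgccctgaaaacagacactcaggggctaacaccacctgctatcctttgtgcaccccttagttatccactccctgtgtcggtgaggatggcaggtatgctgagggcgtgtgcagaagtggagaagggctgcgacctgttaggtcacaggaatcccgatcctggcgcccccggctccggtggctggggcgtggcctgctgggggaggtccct
Capitals mark the only match, on either strand, to the 4 motifs searched in these windows (the TATA box TATAAA, the GC box GGGCGG, the CACC box CCACCC and the AP-1 site TGANTCA): 1 CCACCC, read on the opposite strand of the Krt8 stretch. This motif was found in 11.8% of all 32851 promoters over the same 110 positions. In the Krt18 stretch, none of the 4 motifs was spelled out, and 24.4% of promoters held CCACCC and 27.6% GGGCGG over the same 214 positions. Promoter entries existed for 4 of the 6 members (Krt8, Krt18, Vim and Ina).

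Near copies of the members could share their reads. Of the 1919 stretches of 40 bases in Krt8 transcripts, 558 also occurred in the pseudogene Krt8-ps, but 0 of the 461 in the last 500 bases did, from where most reads of a method primed at the poly(A) tail come. For Krt18, 61 of 1398 stretches were shared with the pseudogenes Gm5200 and Gm17847, 21 of them in the last 500 bases. None of these pseudogenes had a column of its own. Krt17 shared 136 of 1512 stretches with Krt14, Krt15, Krt16 or Krt42, and 63 of the 461 in the last 500 bases. Krt14, which had 1 UMI in each library, held 106 of the 136. Krt42, with 133 UMIs in PD100 and 56 in PD800, held 19, of which 2 were in the last 500 bases. Krt19, Vim and Ina shared no stretch with another gene.

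**Figure D1:**
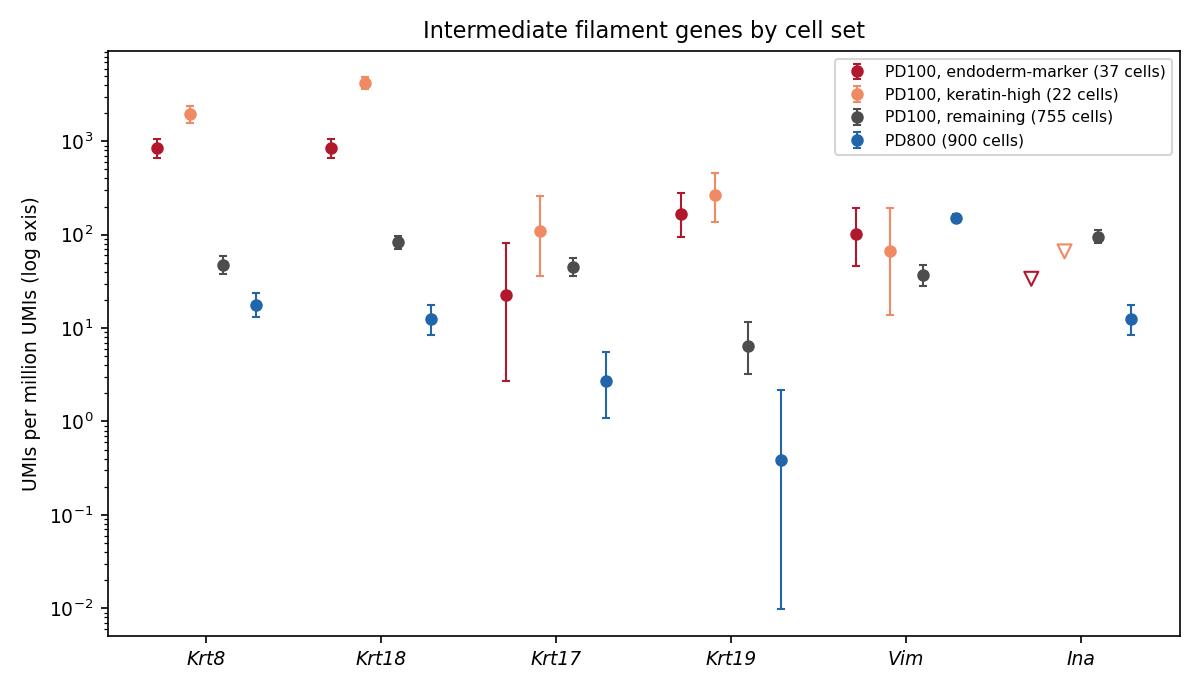
Level of each member (CPM, log axis) in the 37 endoderm-marker PD100 cells, the 22 keratin-high PD100 cells, the 755 remaining PD100 cells and the 900 PD800 cells. Points are sums over cells, bars are exact Poisson 95% intervals, and open triangles mark the level of 3 UMIs where 0 were counted. Krt8, Krt18 and Krt19 stand highest in the 2 small PD100 sets, while Vim is higher in PD800 than in the remaining PD100 cells and Ina is counted only in these 2 large sets.

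The PD100 culture held a small set of cells with genes of extraembryonic endoderm, the lineage that lines the yolk sac. The 37 PD100 cells (4.55%) with at least 5 UMIs summed over Col4a1, Col4a2, Srgn, Gata6 and Gata4 are called endoderm-marker cells here. They had a median of 2418 UMIs, and 3 of them were called doublets. Just inside that limit were 2 cells with 5 marker UMIs and just outside it 1 cell with 4. In PD800 no cell had more than 2. Of the 17 endoderm markers examined, 5 had selected the cells and gave 577 of the 1495 marker UMIs in them. The 12 others were all detected there, at a summed 10309 CPM, against 349 CPM in the other 777 PD100 cells and 146 CPM in PD800, where Ctsh was at 0. Stem cell markers summed to 5929 CPM in the endoderm-marker cells and 12209 CPM in the other PD100 cells, of which Dppa5a alone gave 5211 and 9027 CPM. The 9 other stem cell markers summed to 719 and 3182 CPM.

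The simple-epithelial keratins were concentrated in the endoderm-marker cells. Krt8 reached 842 CPM there (75 UMIs) against 96.7 CPM in the other PD100 cells (168 UMIs), a log2 ratio of 3.12 (2.71 to 3.52). Krt18 had the same 75 UMIs against 330 in the other cells (190 CPM), a log2 ratio of 2.15 (1.77 to 2.51). Krt19 had 15 of its 38 PD100 UMIs in these 37 cells, a log2 ratio of 3.67 (2.63 to 4.67). Krt8 and Krt18 were thus among the genes at least 2-fold higher in the endoderm-marker cells, which made up 11.4% of 4774 genes, and Krt19 had too few UMIs to be counted.

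The other members behaved differently in the same cells. Vim was counted 9 times there (101 CPM) against 37.4 CPM in the other PD100 cells, a log2 ratio of 1.43 (0.24 to 2.45), also past 2-fold. Krt17 had 2 UMIs (22.5 CPM against 47.2), and the interval of its log2 ratio of -1.07 crossed 0 (-4.14 to 0.83). Ina had 0 UMIs in the 37 cells, which bounds its log2 ratio at -1.46 or lower from the 92.7 CPM of the other PD100 cells. At least 2-fold lower were 20% of the 4774 genes.

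Shares of cells were compared after each cell had been thinned to 1000 UMIs. Krt8 was then detected in 51.4% of the endoderm-marker cells (34.4 to 68.1), 6.18% of the other PD100 cells (4.59 to 8.11) and 1.67% of PD800 cells (0.936 to 2.73). Krt18 was found in 32.4% (18.01 to 49.8), 9.91% (7.90 to 12.2) and 0.333% (0.0688 to 0.971) of them, and the share expected over all draws was 0.969% in PD800. The 3 sets thus followed 1 order for this pair. The levels in these sets were known when the members were chosen, so the order is a description. The intervals cover counting error among cells of 1 library each. Without thinning, the shares were 62.2%, 9.78% and 3.56% for Krt8 and 48.6%, 15.4% and 2.44% for Krt18.

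Krt17 was detected in 3.99% of the other PD100 cells and 0.444% of PD800 cells at equal depth (6.95% and 0.667% unthinned). In the endoderm-marker cells its 2 UMIs lay in 2 of 37 cells (5.41%) before thinning and in 0 after this thinning, whose exact upper limit was 9.49%, so their share could not be told from that of the other PD100 cells. For Krt19 the shares were 10.8% (3.03 to 25.4) in endoderm-marker cells, 1.42% (0.709 to 2.52) in other PD100 cells and 0.111% in PD800, where 1 cell held it. Unthinned they were 18.9%, 2.06% and 0.111%. Krt19 therefore marked a minority of cells in each set.

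Vim was detected in 13.4% of PD800 cells (11.3 to 15.8), 2.45% of other PD100 cells (1.48 to 3.79) and 5.41% of endoderm-marker cells (0.661 to 18.2). Its unthinned shares were 28.4%, 5.15% and 13.5%. Ina was detected in 7.21% of other PD100 cells (5.49 to 9.26), 1.22% of PD800 cells (0.612 to 2.18) and 0 of 37 endoderm-marker cells. Unthinned, Ina was found in 13.5%, 2.56% and 0% of them. No cell type known to lack these genes was present to give a background share for free RNA in droplets, and the part of such RNA in the low shares was not tested.

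**Figure D2:**
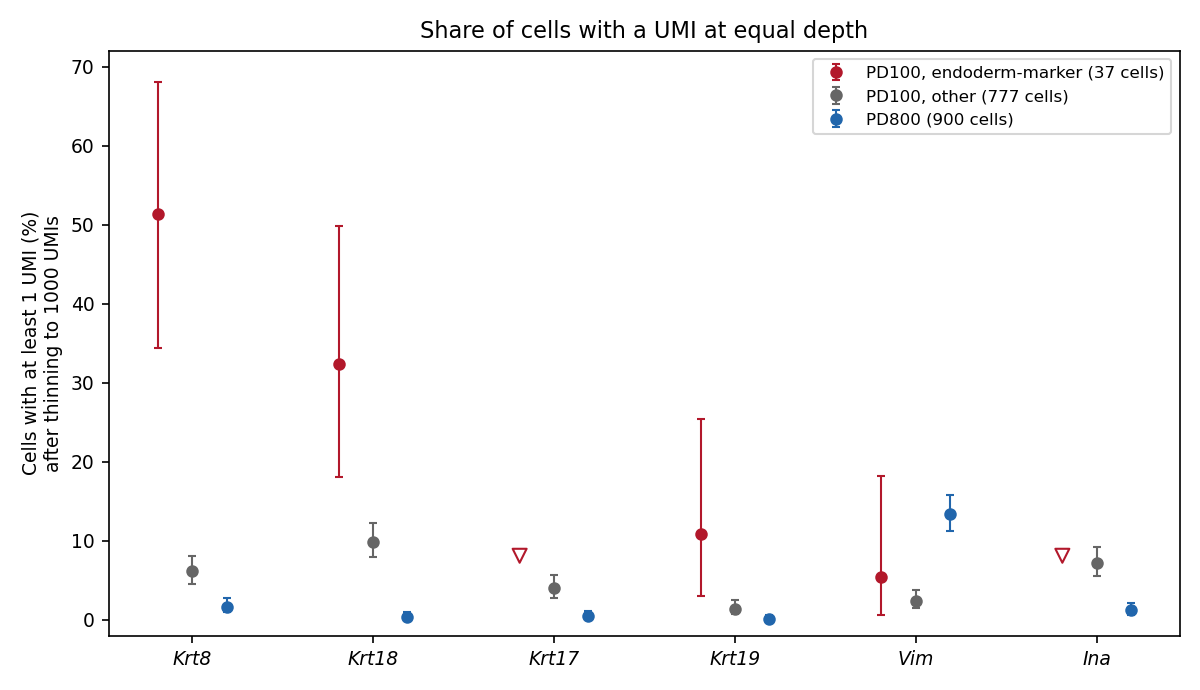
Percent of cells with at least 1 UMI of each member after thinning to 1000 UMIs, in endoderm-marker PD100 cells, other PD100 cells and PD800 cells, with exact binomial 95% intervals. Open triangles mark a count of 0 of 37 cells at the level of 3 cells (8.11%); the exact upper limit is 9.49%. Krt8 falls from 51.4% to 6.18% to 1.67%, and Vim stands highest in PD800 at 13.4%.

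The endoderm-marker cells did not hold most of the keratin UMIs of the PD100 library. They carried 30.9% of its Krt8, 18.5% of its Krt18, 39.5% of its Krt19, 12.2% of its Vim, 2.38% of its Krt17 and 0% of its Ina UMIs, with 4.88% of all UMIs. Without them the log2 ratio of PD800 over PD100 was -2.44 for Krt8 (-2.94 to -1.96), -3.94 for Krt18 (-4.51 to -3.41), -4.12 for Krt17 and -5.09 for Krt19. For Vim it was 2.01 and for Ina -2.90. All 6 members kept their direction, beside 16.4% of 6874 genes at least 2-fold lower and 9.31% at least 2-fold higher in that comparison.

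Krt8 and Krt18 were spread very unevenly over the cells. In PD100, 50% of the Krt18 UMIs lay in 17 of 814 cells and 50% of the Krt8 UMIs in 21 cells, and 1 cell held 25 Krt18 UMIs. In PD800 no cell had more than 4 UMIs of both together. Of the 777 PD100 cells without the endoderm markers, 609 had none and 22 had 5 or more, up to 29 in 1 cell. These 22 cells are called keratin-high here. The set was defined after its values had been seen, with 6 cells at 5 UMIs just inside and 4 cells at 4 UMIs just outside, so the high Krt8 and Krt18 levels in it are no finding.

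The keratin-high cells were 2.70% of PD100 cells and held 36.2% of the library's Krt8, 46.9% of its Krt18 and 31.6% of its Krt19 UMIs. Their median depth was 1942.5 UMIs, against 2150 in the remaining 755 PD100 cells, and 0 of the 22 were called doublets. They carried both chains in 21 of 22 cells, a count that the limit of 5 UMIs over both genes raises but does not fix. Of the 37 endoderm-marker cells 11 had both, 12 only Krt8, 7 only Krt18 and 7 neither, and of the 12 among them with 5 or more UMIs of the pair, 9 had both. Krt18 was counted 2.16 times per Krt8 UMI in the keratin-high cells (1.67 to 2.81), 1.75 times in the remaining PD100 cells (1.32 to 2.33) and 1.00 times in the endoderm-marker cells (0.716 to 1.40). The interval of the endoderm-marker cells overlapped that of the remaining cells. It cannot be set against that of the keratin-high cells, since these 2 counts drew that set. The intervals also take UMIs as independent, while 5 of the 22 keratin-high cells held 96 of their 190 Krt18 UMIs.

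With both sets left out, Krt8 had 80 UMIs in the remaining PD100 cells (47.3 CPM) and Krt18 had 140 (82.7 CPM). The log2 ratios of PD800 over these cells were then -1.41 for Krt8 (-1.96 to -0.87) and -2.74 for Krt18 (-3.34 to -2.18), beside 16.3% of 6837 genes at least 2-fold lower. The members that were rare in the 2 sets moved little, with -4.07 for Krt17, 2.04 for Vim and -2.94 for Ina, and 9.42% of genes were at least 2-fold higher. Leaving out the 59 cells therefore made the PD800 difference of Krt8 and of Krt18 smaller by more than 1 log2 unit each, as removing the cells richest in a gene must, and left it below 0.

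**Figure D3:**
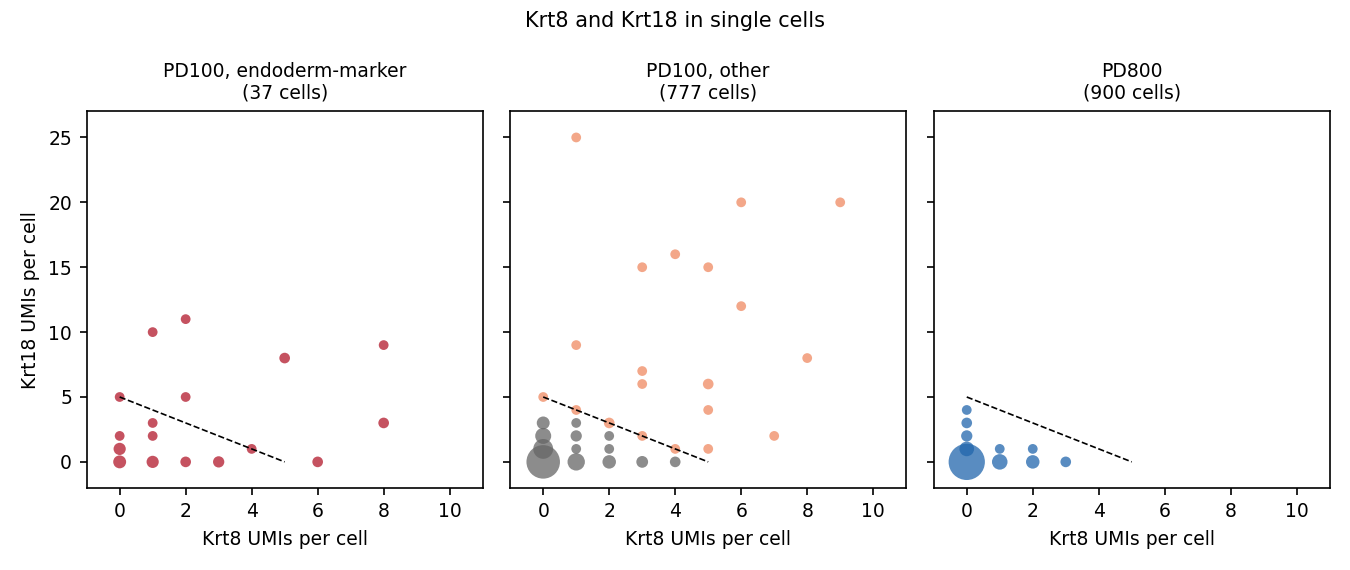
Krt18 UMIs (vertical axis) against Krt8 UMIs (horizontal axis) per cell, before thinning, in endoderm-marker PD100 cells, other PD100 cells and PD800 cells; the area of a point grows with the number of cells at it. The dashed line marks 5 UMIs of both together, and the 22 keratin-high cells are drawn in orange. PD800 cells all lie under the line, with at most 4 UMIs.

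Detection of one chain went with that of the other in PD100. After thinning, Krt18 was found in 43.8% of the 48 other PD100 cells with Krt8 (29.5 to 58.8) and in 7.68% of the 729 without it (5.85 to 9.86). Among the endoderm-marker cells it was found in 9 of 19 cells with Krt8 and 3 of 18 without. Once the keratin-high cells were left out, it was found in 4 of 29 cells with Krt8 (13.8%, 3.89 to 31.7) and in 7.30% of the 726 without, a drop that leaving out cells selected on these 2 genes brings by construction. In PD800, 0 of the 15 thinned cells with Krt8 had Krt18, which only 3 cells held at all.

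Krt19 was detected in 8.33% of the other PD100 cells with Krt8 (4 of 48, 2.32 to 19.98) and 0.960% of those without (0.387 to 1.97). With Krt18 it was found in 5.19% of cells (1.43 to 12.8), against 1.00% without (0.403 to 2.05). The intervals overlapped for Krt18 but not for Krt8. Over all thinned PD100 cells, 7 of the 15 cells with Krt19 had Krt8 and 7 had Krt18. Joint detection of the remaining members was rare. Krt17 and Ina were found together in 1 cell, which was 3.23% of the 31 cells with Krt17, against 7.37% Ina detection in cells without it. In PD800, 1 of the 121 cells with Vim had Ina.

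Krt7, a type II keratin of simple epithelia and of trophoblast, was no member but had a higher level in the keratin-high cells. Its 44 PD100 UMIs stood against 1 in PD800, and 15 of the 44 lay in 9 of the 22 keratin-high cells. This gave 331 CPM, against 17.1 CPM in the remaining PD100 cells, a log2 ratio of 4.27 (3.27 to 5.22). Most of its UMIs, 29 of 44, lay in these remaining cells, 12 of them in 1 cell. Krt7 stayed under the minimum of 50 UMIs in both comparisons. In the endoderm-marker cells it had 0 UMIs. Krt19 had 12 UMIs in 7 keratin-high cells (265 CPM) and 11 in the remaining 755 cells (6.50 CPM), a log2 ratio of 5.35 (4.04 to 6.67). Krt17 and Vim were each counted in 1 of the 22 cells, with 5 and 3 UMIs. Their log2 ratios over the remaining cells were 1.28 (-0.39 to 2.56) and 0.85 (-1.46 to 2.47), intervals that crossed 0, beside 11.6% of 4609 genes at least 2-fold higher and 12.5% at least 2-fold lower. Ina had 0 UMIs.

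The genes whose counts over the other PD100 cells were most like those of Krt8 were Krt18 (Pearson's r of 0.57 of log2(1 + thinned count) over 777 cells), H19 (0.33), Lgals1 (0.26), Anxa2 (0.26) and Lgals3 (0.23). For Krt18 they were Krt8 (0.57), Lgals3 (0.36), H19 (0.36), Anxa3 (0.35) and Anxa2 (0.32). H19 is an imprinted noncoding RNA, Lgals1 and Lgals3 encode galectins that bind galactose-bearing sugars, and Anxa2 and Anxa3 encode annexins that bind membranes in the presence of calcium. These cells share 1 library and 1 thinned depth, 5166 genes were compared, and with another random thinning 3 and 4 of the 5 genes recurred.

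These genes were found over cells that include the 22 keratin-high ones, so their high levels in that set restate how they were found. Over the 755 remaining cells the highest correlation was 0.25 for Krt8 and 0.18 for Krt18, and of the 5 genes named for each, 0 were among the 10 likest. Leaving out cells selected on Krt8 and Krt18 narrows the counts of both, so lower correlations follow by construction and nothing is read from them. Anxa2 reached 1390 CPM in the keratin-high cells and 1258 CPM in the endoderm-marker cells, against 88.7 CPM in the remaining PD100 cells and 41.5 CPM in PD800. Lgals1, at 3928 CPM, and Lgals3, at 1434 CPM, were high in the keratin-high cells but not in the endoderm-marker cells, where they stood at 483 and 112 CPM beside 667 and 119 CPM in the remaining cells. H19 had 29 UMIs in 8 keratin-high cells (640 CPM), 62 in the remaining cells (36.6 CPM), 3 in endoderm-marker cells and 1 in PD800. Nothing is read from the higher levels in the keratin-high cells, since these cells took part in finding the genes. The endoderm-marker cells took no part in it.

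Markers of 7 cell types gave the keratin-high cells no single name. Stem cell markers summed to 8363 CPM, of which 6245 CPM was Dppa5a. The 9 others summed to 2118 CPM, between the 719 CPM of endoderm-marker cells and the 3211 CPM of the remaining PD100 cells, with Nanog and Fgf4 at 0. Endoderm markers summed to 905 CPM against 371 CPM in the remaining cells, and 30 of the 41 UMIs were Sparc. Low counts of Gata6, Gata4, Srgn and both collagens follow from how the set was drawn, and of the 12 endoderm markers not used for that, 8 were at 0. Trophoblast markers summed to 574 CPM against 86.3 CPM in the remaining cells, but 15 of the 26 UMIs were Krt7, and Cdx2, Eomes, Elf5 and Tfap2c were at 0. All 15 UMIs of the fibroblast list came from Tagln, a smooth muscle actin-binding protein, and the other 10 genes, Col1a1 among them, were at 0, so the defining genes of feeder fibroblasts were not detected in these cells. Surface ectoderm and mesoderm markers had 2 UMIs each, and neural markers summed to 375 CPM, against 478 CPM in the remaining cells.

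**Figure D4:**
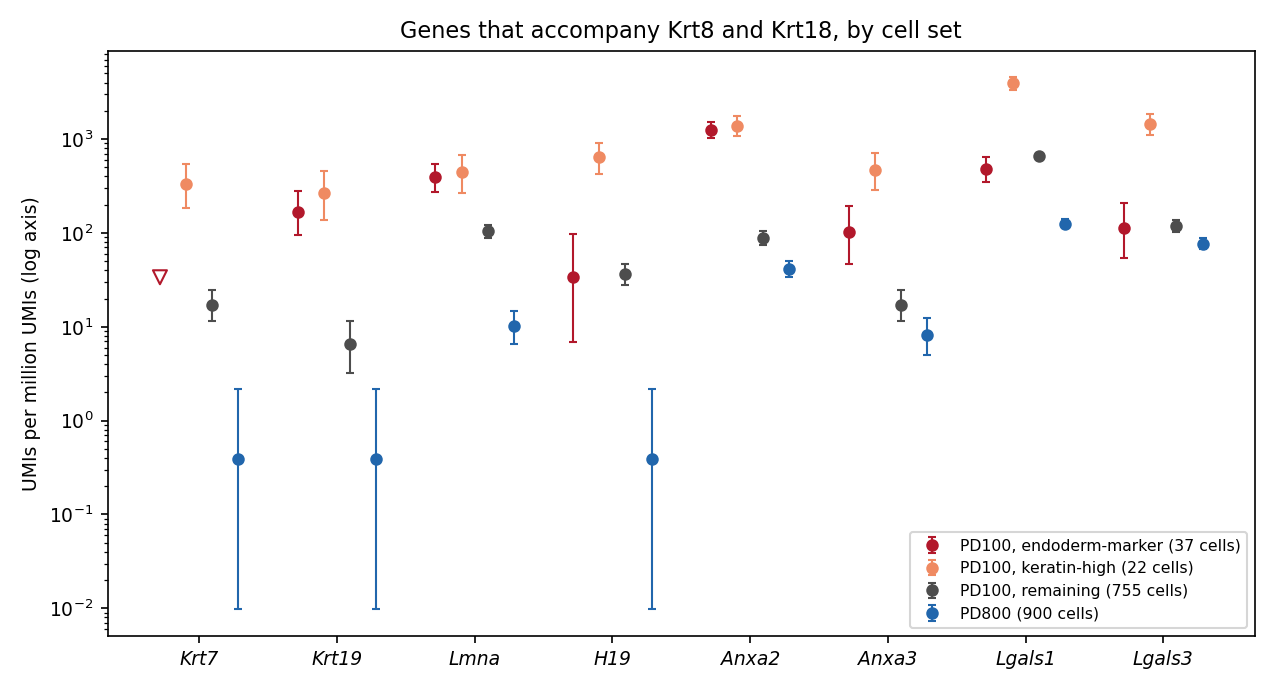
Levels (CPM, log axis, exact Poisson 95% intervals) of Krt7, Krt19, Lmna and the 5 genes most like Krt8 or Krt18 in the 4 cell sets. An open triangle marks the level of 3 UMIs where 0 were counted. Anxa2 and Lmna are about equally high in both small PD100 sets, whereas Krt7, H19, Lgals1 and Lgals3 stand highest in the keratin-high cells.

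For Krt17, Vim and Ina the likest genes over the other PD100 cells were weakly related and depended on the draw. The highest correlations were 0.17 with Rab35 for Krt17, followed by Uap1, Gm38166, Krt42 and Smim11, and 0.22 with Rnd2 for Vim, followed by Itga6, Larp4b, St13 and Erf. For Ina the highest was 0.18 with Ccdc77, followed by Mbnl2, Mllt4 and Luc7l3. With another random thinning, 1, 0 and 1 of the 5 genes recurred for Krt17, Vim and Ina, so no gene is singled out. In PD800 no gene reached 0.15 with Vim, the only member found in at least 2% of thinned cells there.

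Cells marked by other genes overlapped partly with the members. S100a6 was found in 25.0% of the other PD100 cells with Krt8 (13.6 to 39.6) and 11.8% of those without (9.55 to 14.4), and Plaur in 16.7% (7.48 to 30.2) and 4.94% (3.48 to 6.77). Lefty1 was found in 17.9% of cells with Ina (8.91 to 30.4) against 9.29% without (7.27 to 11.7), and in 9.68% of cells with Krt17 against 9.92% without. With Krt8 the direction was the other way, as Lefty1 was found in 6.25% of cells with it (1.31 to 17.2) and 10.2% without (8.05 to 12.6). Among the pairs named here, only the intervals of Plaur with and without Krt8 did not overlap.

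Over the wider family, 68 of the 69 intermediate filament genes listed had a column, 51 had a UMI in a kept cell and 12 reached 50 UMIs. Of these 12, 8 were at least 2-fold lower in PD800, 1 was at least 2-fold higher and 3 lay between, beside 16.9% lower and 9.22% higher of all 6984 genes, with a median log2 ratio of -1.76 beside -0.34. Of the 8, 4 are members selected on this ratio. The 7 genes that are no members held 4 at least 2-fold lower, 0 higher and 3 between, beside the same 16.9% (5.78% with median-of-ratios scaling). Of the 54 keratins in the list, 53 had a column, 38 had a UMI and 5 reached the minimum.

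Lmna, which encodes the A-type lamins that stiffen the nucleus and rise as cells differentiate, had the lowest ratio of the 7. Its count went from 231 UMIs (126 CPM) to 26 (10.1 CPM), giving a log2 ratio of -3.65 (-4.30 to -3.06) and position 6961 of 6984. It was also higher in the endoderm-marker cells than in the other PD100 cells (393 against 113 CPM, log2 ratio 1.80, 1.24 to 2.33) and in the keratin-high cells (441 CPM), and without both sets its ratio was -3.37. The B-type lamins, which all cells use, lay within 2-fold, Lmnb1 at -0.63 (-0.97 to -0.30) and Lmnb2 at 0.37 (-0.08 to 0.83).

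Krt42, a type I keratin gene 1852 bases from Krt17, went from 133 to 56 UMIs, giving a log2 ratio of -1.75 (-2.22 to -1.29). The neurofilament chains Nefl and Nefh, type IV proteins like Ina, were lower too, at -1.77 (-2.43 to -1.15) and -1.71 (-2.50 to -0.96). Both were past 2-fold, as were 16.9% of all genes on the lower side. Krt10, a keratin of differentiating epidermis, stood at -0.18 (-0.78 to 0.42), and in the endoderm-marker cells Nefl was at least 2-fold higher, with 10 UMIs and a log2 ratio of 1.59 (0.46 to 2.56).

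Genes of proteins that anchor filaments were counted in the same way. Of the 17 linker and desmosome genes with a column, 8 reached 50 UMIs, of which 3 were at least 2-fold lower in PD800, 0 higher and 5 between, beside 16.9% lower over all genes, with a median of -0.70 beside -0.34. The 3 were Pkp2 (-1.91, -2.61 to -1.26) and Pkp3 (-1.35, -2.04 to -0.68), which encode plakophilins of the desmosomal plaque, and Plec (-1.56, -2.31 to -0.84), which encodes the cross-linker plectin. Jup, the plakoglobin gene, stood just inside the limit at -0.94 (-1.34 to -0.55). Dsp, the desmoplakin gene, had 11 UMIs in PD100 and 7 in PD800 and was not counted.

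**Figure D5:**
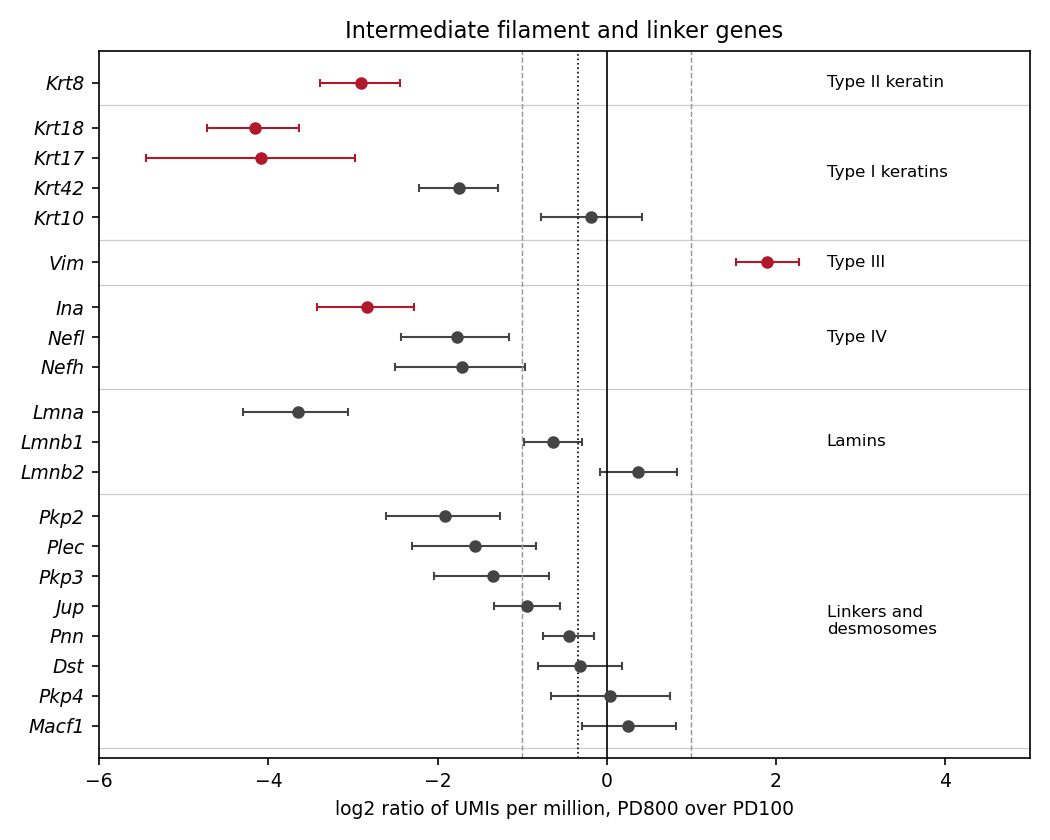
log2 ratio of PD800 over PD100 with exact 95% counting intervals for the 12 intermediate filament genes and 8 linker genes with at least 50 UMIs, members in red. Dashed lines mark 2-fold, the dotted line the median gene at -0.34. Lmna lies among the lowest genes at -3.65, and Vim is the only gene past 2-fold on the higher side.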

How the data were processed

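Per the paper, Terc-deficient DKO741 mESCs were measured by inDrops. The labels give 1 sample at passage 100 and 1 at passage 800. Both files deposited are raw count tables of UMIs by barcode and gene. The authors ran the inDrops pipeline for them, on a transcriptome derived from GRCm38/mm10. The annotation release is not given in the sources used here. The stated filter (1000 counts, 20% mitochondrial) left more cells in both tables than the methods of the study give. The members and gene lists were chosen with earlier results of these data known. UMIs were summed over cells and divided by totals (CPM). Sums, ratios and shares have exact Poisson, conditional (Clopper-Pearson) and binomial 95% intervals. With 1 library a group no test was made. A set at 0 was given 3 counts. Genes with 50 UMIs over both sets were counted. Cells were thinned to 1000 UMIs (seed 1). Scrublet in Scanpy 1.11.5 (expected rate 5%) called 14 PD100 (1.72%) and 8 PD800 (0.889%) doublets, which were kept. Named were the members, listed genes past 2-fold, and up to 5 genes correlated at 0.15 or more with a member among genes in 2% of cells. Dsp, Krt7, Plaur and S100a6 were in fixed lists, and genes between the limits were added after their values were seen. Python 3.11.15, NumPy 2.4.6, SciPy 1.17.1 and pandas 2.3.3 were used. The steps were tested on simulated data.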

Additional observations from a re-analysis of the deposited data

Results flagged for a closer look

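The barcodes that the filter left out (477 of PD100 with 246800 UMIs, 766 of PD800 with 458381 UMIs) were used in no comparison, yet held UMIs of all 6 members above the level of 3 counts in at least 1 library. In the PD100 barcodes left out, Krt8 stood at 243 CPM (60 UMIs), Krt18 at 429 CPM (106 UMIs), Krt17 at 44.6 CPM, Krt19 at 36.5 CPM, Vim at 64.8 CPM and Ina at 28.4 CPM. In those of PD800, Krt18 stood at 8.73 CPM (4 UMIs), Krt17 at 10.9 CPM (5 UMIs) and Vim at 133 CPM (61 UMIs). Krt8 and Krt18 were thus higher, and Ina lower, than the 133, 222 and 88.2 CPM of the kept PD100 cells. Of the 166 Krt8 and Krt18 UMIs left out in PD100, 73 lay in 8 barcodes with 5 or more of them, and no such barcode occurred in PD800. The direction of the log2 ratio of PD800 over PD100 was that of the kept cells for all 6 members (Krt8 -5.22, Krt18 -5.62, Krt17 -2.03, Krt19 -4.06, Vim 1.04, Ina -2.70).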

How the results depend on the processing

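With 1 library a group, the values give no spread between cultures, and depth limits Krt19, Krt17 and all shares in PD800. Of 311 values recomputed under other settings, 277 stayed within the counting interval of the reported value, or within the limits below, and 34 moved beyond it. Values without such an interval had other limits. These were 1.5 times for the background, 1 log2 unit for ratios, and the same likest gene for correlations. A turn of direction was looked for only in ratios whose interval excluded 0, and 0 of these turned. Shares, background and correlations could not be counted as turned. Of the 311 settings, 295 were set beforehand and 16, all concerning the keratin-high cells, were chosen after seeing the data. No paired analysis was possible because each group had 1 library. The cause of the moves was not tested unless stated.

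Median-of-ratios scaling gave log2 ratios of PD800 over PD100 of -2.43 for Krt8 and 2.36 for Vim (2.44 over the other PD100 cells), and a background of 16.5% higher and 5.78% lower. At 1.5-fold the background was 15.2% and 36.6%, as a wider limit must give. Without both keratin-rich sets, Krt8 stood at -1.41 and Krt18 at -2.74, and without the 5 richest cells Krt17 at -6.46. With at least 2000 UMIs per cell, Krt18 had a log2 ratio of 2.71 in the endoderm-marker over the other PD100 cells and was found in 7.08% of the latter.

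Shares of cells rose with depth. Thinned to 2000 UMIs they were, in the other PD100 cells, 8.22% for Krt8, 6.16% for Krt17, 4.57% for Vim and 13.7% for Ina, in PD800 3.07% for Krt8, 1.38% for Krt18 and 23.8% for Vim, and in the endoderm-marker cells 25.9% for Krt19. Unthinned they were 9.78% for Krt8, 15.4% for Krt18, 6.95% for Krt17, 5.15% for Vim and 13.5% for Ina in the other PD100 cells, and 3.56% for Krt8, 2.44% for Krt18, 28.4% for Vim and 2.56% for Ina in PD800. Another random thinning gave 1.00% for Krt18 in PD800, and leaving out doublet calls 0% for Krt19.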
